A study of Mus musculus with 8 samples.

Results

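The 10 genes described here encode transcription regulators that act in meiosis and in spermiogenesis, the maturation of haploid spermatids into sperm. They are Crem, Fhl5, Rfx2, Sox30, Sox5, Tbpl1, Taf7l, Brwd1, Mybl1 and Tcfl5. Like the gene lists used below, they were chosen by name with earlier results of these data known. All 10 were found among the 56748 Ensembl genes of the count table. RNA sequencing of adult mouse testis compared 4 libraries of genotype Ssty2-/- with 4 wild-type (WT) libraries, for which no deletion is labelled. Ssty2 is a multicopy gene of the Y chromosome that is transcribed in spermatids, and the comparison asks which transcripts differ after its repeats were deleted. Strain, exact age, the number of founder lines, pooling of animals and the way of deletion are not stated in the labels. In the knockout libraries 7 of the 10 regulators rose, by 1.13-fold to 1.39-fold, 1 fell (Taf7l, to 0.749 of its wild-type level) and 2 did not pass the test (Brwd1 and Mybl1). Of all tested genes 26.2% were called higher and 27.4% lower, and of those of similar mean level 41.9% and 20.2%. Scaled by library totals alone, 4 of the 10 were called higher and 3 lower, as were 3848 and 8255 of all 21952 tested genes. Relative to the summed round spermatid markers of the same libraries all 10 were lower on average, 9 of them with no overlap between the groups. That sum itself rose by 0.55 on the log2 scale, more than any of the 10, so any gene that rose less is lower here. The median log2 fold change of all tested genes was -0.01, and their share lower by this measure was not counted. With the median of the round spermatid markers in place of their sum, Sox5 was at 0.0029 on the log2 scale and 7 of the 9 passed.

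The Ensembl gene taken for Ssty2 was at 0 counts in each knockout library, while wild-type libraries 1 to 4 held 56, 78, 83 and 45 counts of it. Other copies of this multicopy gene were not looked at. Total counts ran from 18036708 to 24415587 per library, and each of the 10 regulators had between 640 and 9865 counts in every library. Whether replicates came from separate animals is not labelled, and a p-value here covers no more than the differences seen from library to library, possibly technical ones. Levels are given as CPM, the count relative to the library's total after adjustment of that total by edgeR's trimmed-mean factors (TMM), and means are given with SD and n = 4 per group. A gene is called where its adjusted p is under 0.05 in edgeR's quasi-likelihood test, with Benjamini-Hochberg adjustment over 21952 tested genes. Of all tested genes, 53.5% were called, 26.2% higher and 27.4% lower in knockout, and 46.7% did not overlap between the groups, 22.7% being higher and 24% lower. Of the 10 regulators 8 did not overlap, 7 higher and 1 lower. Among the 4591 genes with a mean level in the range of these regulators, from 43.4 to 392.9 CPM, 62.1% were called, 41.9% higher and 20.2% lower. The median log2 fold change of the 10 regulators was 0.25, against -0.01 over all tested genes and 0.10 over those of similar level. Their median absolute log2 fold change was 0.26, against 0.35 over all tested genes and 0.21 over those of similar level.

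Male germ cells change their transcription programme on entering mid-meiosis and again after meiosis. A-MYB, the product of Mybl1, switches on genes of pachytene spermatocytes, the cells in mid-meiosis, and the basic helix-loop-helix factor TCFL5 acts beside it. CREM, RFX2, SOX30 and the TBP-like protein TBPL1 are needed by round spermatids, and FHL5 is a coactivator of CREM in these cells, in which genes for sperm structures are transcribed before the chromatin is compacted. In bulk testis a changed level of such a gene cannot be told apart from a changed share of the cells that transcribe it, nor from a change in RNA per cell.

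Levels per exon length spanned a wide range in wild type. Fhl5 was highest with 194 ± 11.99 CPM per kilobase (SD, n = 4), and it was followed by Tcfl5 with 116 ± 4.49 and Tbpl1 with 77.9 ± 2.90. Sox30 with 59.8 ± 2.57, Rfx2 with 45.0 ± 2.83 and Crem with 35.5 ± 1.98 CPM per kilobase formed the middle of the order. Taf7l with 22.1 ± 2.48, Mybl1 with 15.1 ± 1.203, Sox5 with 7.79 ± 0.233 and Brwd1 with 4.03 ± 0.210 CPM per kilobase were lowest. No neighbours in this order overlapped between libraries in wild type. The order was the same in knockout, but there Taf7l (16.6 ± 1.03 CPM per kilobase) overlapped with Mybl1 (13.9 ± 1.96) and Mybl1 with Sox5 (10.8 ± 1.23). Lengths are those of all annotated exons together, so a gene transcribed in testis from a short form, as is known for Sox5 and Crem, stands lower on this scale than its transcripts would.

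**Figure D1:**
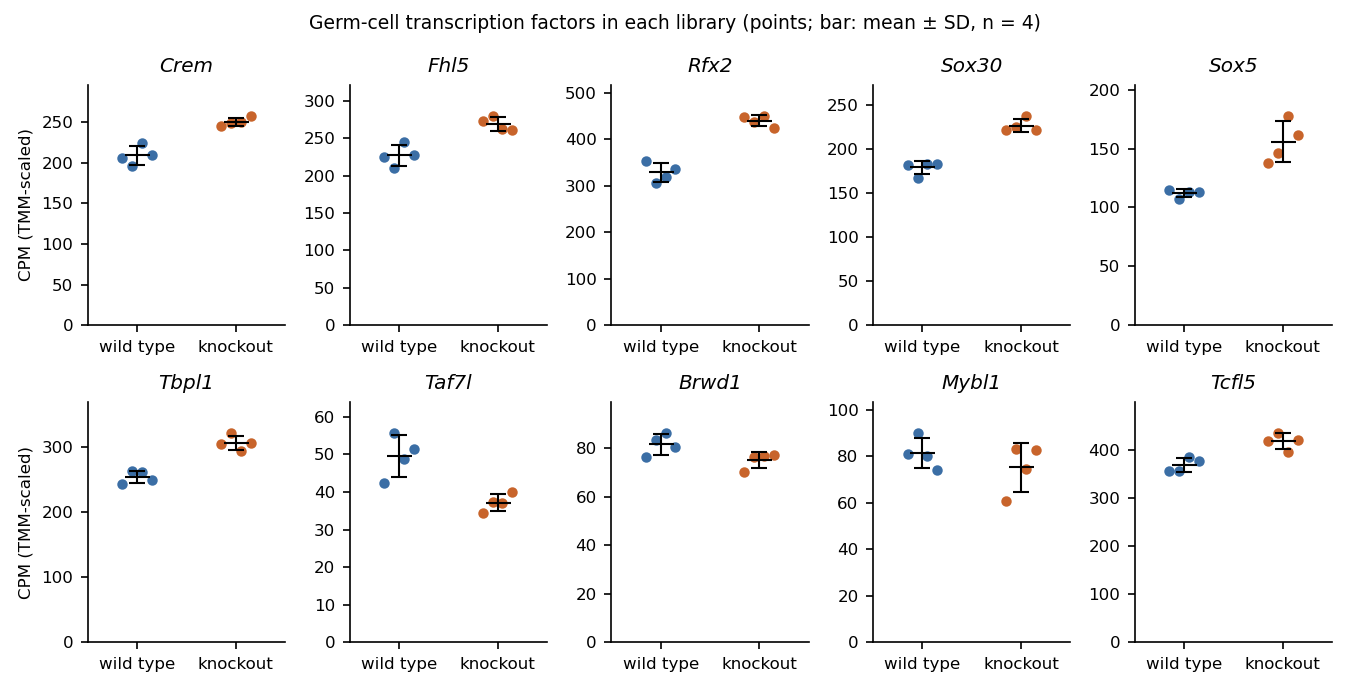
Level of each regulator in each of the 8 libraries (vertical axis, TMM-scaled CPM from 0; blue wild type, orange knockout; black bars mean ± SD, n = 4 per group). For 7 genes every knockout point lies above every wild-type point, for Taf7l every knockout point lies below, and for Brwd1 and Mybl1 the groups overlap.

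Of the regulators of meiotic spermatocytes, Tcfl5 rose and Mybl1 did not pass the test. Mybl1, the gene of A-MYB, stood at 81.0, 90.0, 80.4 and 74.2 CPM in wild type and at 60.7, 83.4, 74.4 and 82.8 CPM in knockout. Its groups overlapped, with knockout replicate 1 lowest and the other knockout libraries within the wild-type range. The log2 fold change of Mybl1 was -0.11 (95% interval -0.30 to 0.07, adjusted p = 0.297 in edgeR's quasi-likelihood test). It was -0.02 without knockout replicate 1 and -0.07 without wild-type replicate 2, and it did not pass when any 1 library was left out. Tcfl5, the helix-loop-helix gene, stood at 356.7, 356.0, 384.2 and 376.5 CPM in wild type and at 419.4, 434.7, 394.6 and 421.1 CPM in knockout. Every knockout library lay above every wild-type library, with knockout replicate 3 closest to the wild-type range. On the log2 scale Tcfl5 rose by 0.18 ± 0.0504 (SE), with an adjusted p = 0.00643 in edgeR, a call that ended with library totals (0.04, adjusted p = 0.516). The gene Col9a3 on the opposite strand shares 234 exon bases with Tcfl5 and rose from 16.92 ± 1.195 to 24.8 ± 5.51 CPM. The strand setting of the counting is not given, so reads of shared bases cannot be told apart.

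Upstream sequences of Rfx2, Tcfl5 and Sox30 are shown because they hold a short word that MYB factors are known to read. They come from RefSeq's promoters of build GRCm38.p6, which held 8 of the 10 genes, with Crem and Mybl1 not among them. GRCm38 is not the build the submitters name, so these positions are RefSeq's own. Each sequence is the 250 bases before the start site on the gene's strand, 5′ to 3′, and capitals mark the MYB core AACGG or its reverse complement CCGTT. Rfx2 lies at chr17:56831009-56831258 (minus strand), Tcfl5 at chr2:180642692-180642941 (minus strand) and Sox30 at chr11:45980060-45980309 (plus strand).
Rfx2: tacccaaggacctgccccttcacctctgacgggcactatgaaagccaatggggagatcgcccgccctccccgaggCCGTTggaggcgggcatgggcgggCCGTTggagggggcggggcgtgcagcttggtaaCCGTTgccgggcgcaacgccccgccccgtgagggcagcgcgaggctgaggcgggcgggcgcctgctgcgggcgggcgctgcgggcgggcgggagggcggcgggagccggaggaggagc
Tcfl5: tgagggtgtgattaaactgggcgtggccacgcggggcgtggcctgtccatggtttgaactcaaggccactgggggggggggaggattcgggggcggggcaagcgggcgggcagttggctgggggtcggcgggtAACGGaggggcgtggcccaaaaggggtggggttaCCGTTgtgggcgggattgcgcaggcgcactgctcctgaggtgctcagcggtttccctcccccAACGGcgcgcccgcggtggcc
Sox30: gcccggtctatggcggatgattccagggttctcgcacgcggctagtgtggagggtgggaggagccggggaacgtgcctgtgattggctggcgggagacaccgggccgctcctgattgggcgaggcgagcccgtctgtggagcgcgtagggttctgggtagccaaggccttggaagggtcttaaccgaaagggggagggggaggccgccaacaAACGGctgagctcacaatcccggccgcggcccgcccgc
The Rfx2 and Tcfl5 sequences held 3 such words each, and that of Sox30 held 1, which begins 38 bases before the start site. In Rfx2 the word nearest the start site, beginning 118 bases before it, overlaps GTTGCC, the half-site of the X-box that RFX factors bind, which begins at 116 bases. AACGG or CCGTT was present in 3 of the 9 promoters of these 8 regulators and in 14.5% of all 32851 promoters. GC content was 76.0% in Rfx2, 70.4% in Tcfl5 and 68.0% in Sox30, and a match describes letters, not binding.

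Genes known as A-MYB targets in pachytene cells went both ways. Of the 12, all tested, 3 rose, 2 fell and 7 did not pass, with a median log2 fold change of 0.08. All tested genes also went both ways, with 26.2% called higher and 27.4% lower. Tdrd6 and Mael, both of the piRNA pathway that silences transposons, rose from 779.8 ± 28.6 to 980.5 ± 38.4 CPM and from 904.3 ± 24.7 to 1064 ± 38.1 CPM. Hspa2, a heat shock gene of spermatocytes, rose by 0.12 on the log2 scale (adjusted p = 0.0400 in edgeR). Mov10l1, a helicase gene of piRNA production, fell from 133.5 ± 4.85 to 105.5 ± 4.59 CPM, and Tdrd5 fell by 0.14 on the log2 scale (adjusted p = 0.0313 in edgeR). Piwil1, the gene of a pachytene piRNA-binding protein, was chosen after its value was seen and stood at 451.8 ± 20.6 CPM in wild type and 454.9 ± 27.5 CPM in knockout. Upper-quartile scaling gave 6 higher and 1 lower, and library totals gave 1 higher and 4 lower.

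The E-box CACGTG, which reads alike on both strands and is bound by helix-loop-helix factors, was found in 7 of the 13 promoters that 10 of these pachytene genes have in the table (53.8%), against 6.02% of all promoters. The MYB core was found in 6 of the 13 (46.2%). Among the 9 promoters of the regulators 1 held CACGTG, that of Taf7l. It is shown beside that of Mov10l1, with CACGTG in capitals, as examples with this word from genes that fell. The word was also found upstream of Mael, which rose, and of Piwil1, Tdrd1, Tdrd9 and Pld6, which did not pass. Tdrd5, which fell, had none, so the word did not mark the genes that fell. Taf7l lies at chrX:134476491-134476740 (minus strand) and Mov10l1 at chr15:88982744-88982993 (plus strand).
Taf7l: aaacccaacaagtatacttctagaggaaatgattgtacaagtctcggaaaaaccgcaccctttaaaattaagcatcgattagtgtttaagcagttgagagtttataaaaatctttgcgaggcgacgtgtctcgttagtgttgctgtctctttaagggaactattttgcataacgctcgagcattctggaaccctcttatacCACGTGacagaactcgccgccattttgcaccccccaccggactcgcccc
Mov10l1: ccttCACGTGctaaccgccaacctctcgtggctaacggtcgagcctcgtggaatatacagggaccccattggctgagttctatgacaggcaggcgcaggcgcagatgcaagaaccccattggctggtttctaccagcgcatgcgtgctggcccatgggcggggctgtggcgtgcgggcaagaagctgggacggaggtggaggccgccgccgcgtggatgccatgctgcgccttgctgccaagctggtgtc
The E-box begins 49 bases before the start site of Taf7l and 246 bases before that of Mov10l1.

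Both Crem and the gene of its coactivator rose with TMM scaling, and with library totals neither passed (adjusted p = 0.0606 for Crem and 0.0999 for Fhl5 in edgeR). Crem encodes an activator of genes with a cAMP response element, and its loss is known to stop spermatids at the round stage. It stood at 206.3, 196.3, 224.5 and 209.9 CPM in wild type and at 245.2, 249.0, 249.8 and 257.8 CPM in knockout. The groups did not overlap, and the knockout libraries lay closer together than the wild-type libraries. On the log2 scale Crem rose by 0.26 ± 0.0524 (SE), with an adjusted p = 0.000591 in edgeR. The gene Gm6225, which shares 472 exon bases with Crem on the opposite strand, rose from 10.7 ± 0.655 to 15.9 ± 0.473 CPM, while Crem moved from 209 ± 11.7 to 250.5 ± 5.32 CPM. Fhl5, the gene of the LIM protein ACT that lets CREM activate without phosphorylation, stood at 225.6, 210.8, 245.1 and 227.5 CPM in wild type and at 273.8, 280.1, 262.8 and 261.3 CPM in knockout. All knockout libraries were above all wild-type libraries. The log2 change of Fhl5, a rise, was 0.25 ± 0.0547 (SE), with an adjusted p = 0.00127 in edgeR.

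Rfx2 and the SOX genes had the largest estimates among the 7 that rose. Rfx2, needed for flagellum genes in spermatids, stood at 354.1, 306.2, 319.7 and 336.1 CPM in wild type and at 447.7, 436.8, 450.7 and 424.4 CPM in knockout. The lowest knockout library lay well above the highest wild-type library. Rfx2, whose upstream sequence with its MYB words is printed above, rose by 0.42 ± 0.0534 (SE) on the log2 scale, with an adjusted p = 8.29e-06 in edgeR. Sox30, an HMG-box gene without which spermatids stop early, stood at 182.4, 167.7, 183.5 and 183.4 CPM in wild type and at 222.1, 224.8, 237.9 and 221.7 CPM in knockout. Wild-type replicate 2 was the lowest library and the groups did not overlap. On the log2 scale Sox30 rose by 0.34 ± 0.0518 (SE), with an adjusted p = 4.90e-05 in edgeR.

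Sox5, an HMG-box gene with a short testis form, stood at 115.0, 107.2, 112.7 and 113.1 CPM in wild type and at 137.5, 146.6, 177.8 and 161.6 CPM in knockout. The wild-type libraries were close together, while the knockout libraries were spread, with replicate 3 highest. The log2 estimate for Sox5, a rise, was 0.48 ± 0.0698 (SE), with an adjusted p = 3.24e-05 in edgeR. The counts are per gene and do not show which form rose. Sox5os1, which shares 1330 exon bases with Sox5 on the opposite strand, held 1.43 ± 0.306 CPM in wild type and 2.19 ± 0.281 CPM in knockout.

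Genes of the basal machinery and of chromatin went in different directions. Tbpl1, whose product stands in for TBP at a set of spermatid promoters, stood at 244.4, 263.5, 262.3 and 249.4 CPM in wild type and at 305.1, 321.8, 294.7 and 306.3 CPM in knockout. No knockout library reached down to the wild-type range. On the log2 scale Tbpl1 rose by 0.27 ± 0.0504 (SE), with an adjusted p = 0.000317 in edgeR. Slc2a12, which shares 407 exon bases with Tbpl1 on the opposite strand, held 5.29 ± 0.501 CPM in wild type and 4.69 ± 0.355 CPM in knockout.

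Taf7l, the X-linked germ-cell paralogue of the TFIID subunit gene Taf7, stood at 42.4, 55.7, 48.8 and 51.5 CPM in wild type and at 34.4, 37.3, 37.1 and 40.0 CPM in knockout. Wild-type replicate 1 came closest to the knockout libraries, and the groups did not overlap. On the log2 scale Taf7l fell by 0.42 ± 0.0814 (SE), with an adjusted p = 0.000443 in edgeR. The 10 regulators lie on 10 different chromosomes, and of the 836 tested genes on the X, that of Taf7l, 41.1% were called lower and 36.4% higher. Brwd1, a bromodomain gene required in male and female germ cells, stood at 76.3, 83.5, 86.2 and 80.5 CPM in wild type and at 70.1, 76.3, 76.7 and 77.0 CPM in knockout. Wild-type replicate 1 was the library that lay among the knockout values. The log2 fold change of Brwd1 was -0.12 and did not pass (95% interval -0.25 to 0.00, adjusted p = 0.0931 in edgeR). Without that library it was -0.16 and passed (adjusted p = 0.0367, with a range from 0.00164 to 0.484 over 16 alternatives). Gm15342, which shares 95 exon bases with Brwd1 on the opposite strand, held 9 counts over the wild-type libraries and 35 over the knockout libraries.

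**Figure D2:**
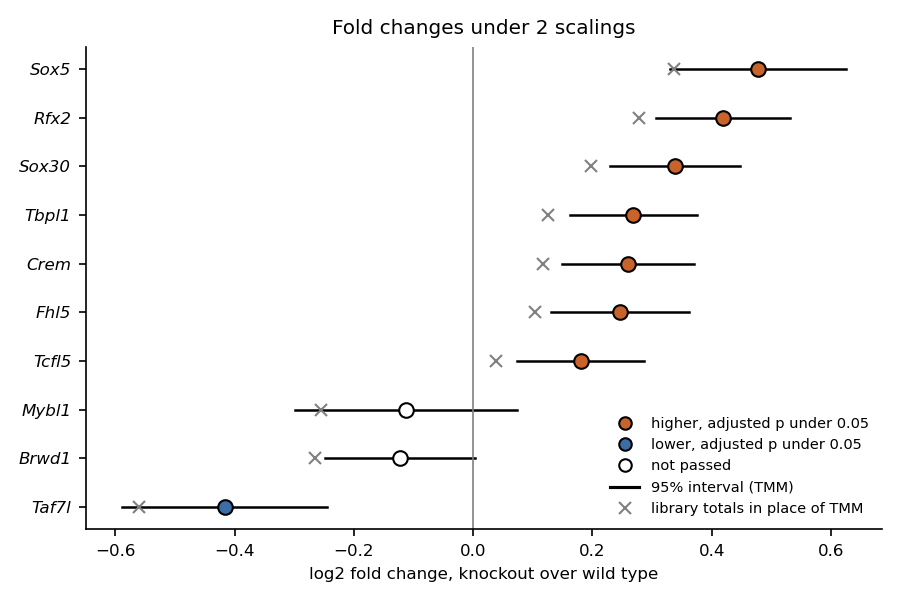
Log2 fold change of each regulator, knockout over wild type (horizontal axis), with TMM scaling as circles with 95% intervals and with library totals as crosses. Every cross lies to the left of its circle, and Taf7l is the gene farthest below 0 at -0.42.

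Changes of this size depended on how libraries were scaled to each other. With library totals in place of TMM the median of all tested genes lay at -0.15, and 31.8% of all calls were higher in place of 48.9%. On that scale 4 of the 10 regulators were called higher (Rfx2, Sox30, Sox5 and Tbpl1) and 3 lower (Taf7l, Brwd1 and Mybl1). Crem, Fhl5 and Tcfl5 then had log2 fold changes of 0.12, 0.10 and 0.04 and did not pass (adjusted p = 0.0606, 0.0999 and 0.516 in edgeR). Their lowest adjusted p over 16 alternatives were 8.57e-06, 7.36e-05 and 0.000937, and the values just given were the highest. Relative to the shifted median of all genes, Crem, Fhl5 and Tcfl5 were at 0.27, 0.25 and 0.19, which are also their values relative to the median with TMM. A change of scaling moves all genes by nearly the same amount, so this agreement is fixed by the arithmetic and is no separate result.

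Ratios of each regulator to a paralogue within the same library do not depend on scaling, and 9 such ratios were computed. For 6 of them the groups did not overlap, each with a two-sided exact permutation p = 0.0286, the smallest that 4 against 4 allows (0.0429 adjusted over the 9 ratios). When any 1 of the wild-type libraries was left out, 0 passed after adjustment, with the 6 in the same direction. Direction and lack of overlap were fixed in advance for these 6, since groups that are apart stay apart when a library is left out. What failed was the coarse exact permutation p after adjustment, which with 3 against 4 libraries is at least 0.0286 before it. The ratio of Crem to Creb1, a somatic CRE-binding activator, was 8.91, 6.65, 9.21 and 8.16 in wild type and 12.3, 10.8, 11.2 and 11.8 in knockout. Fhl5 over Fhl1 was 11.01 ± 1.142 in wild type and 19.6 ± 0.652 in knockout. The X-linked Fhl1, a LIM gene of muscle, fell by 0.59 on the log2 scale (adjusted p = 2.19e-05 in edgeR). Another LIM gene of the family, Fhl4, was chosen after its value was seen and rose from 2501 ± 94.7 to 3136 ± 159 CPM. Its log2 fold change was 0.33, against 0.25 for Fhl5, and the difference was not tested. Tbpl1 over Tbp was 1.96 ± 0.0696 in wild type and 2.20 ± 0.0686 in knockout, and Tbp itself, at 130.4 ± 3.97 and 139.9 ± 8.93 CPM, did not pass (adjusted p = 0.138 in edgeR). Of the 31-base words of Tbp 18.6% are found in other genes, mostly Pdcd2, which held 0 counts in both groups. Of those of Tbpl1 11.6% are, mostly in Slc2a12. Reads of each could have been shared with such genes.

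Relative to Rfx1 and to Mybl2, Rfx2 and Mybl1 were lower in knockout. Rfx2 over Rfx1 was 2.71, 2.61, 2.48 and 2.55 in wild type and 2.09, 2.22, 2.00 and 2.00 in knockout. Although Rfx2 rose, Rfx1 rose further, from 127.1 ± 6.69 to 212 ± 11.4 CPM. The estimate for Rfx1 was 0.74 ± 0.0574 (SE) on the log2 scale, with an adjusted p = 5.24e-08 in edgeR. Mybl1 over Mybl2 was 6.37, 6.86, 6.27 and 6.13 in wild type and 2.94, 5.35, 4.55 and 4.34 in knockout. In knockout replicate 1, which had the lowest Mybl1, this ratio was also lowest. Mybl2, the MYB gene of cycling cells, rose from 12.7 ± 0.420 to 17.9 ± 2.36 CPM, and 21.1% of its 31-base words are found in other genes, so its reads could have been shared. For Rfx4, a family member chosen after its value was seen, the log2 fold change was 0.26, below the 0.42 of Rfx2, and that difference was not tested.

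Sox5 over Sox6 was 1.07 ± 0.0215 in wild type and 1.17 ± 0.0636 in knockout, with no overlap. Sox30 over Sox6 overlapped, at 1.71 ± 0.0605 in wild type against 1.71 ± 0.0629 in knockout (exact permutation p = 0.800). Sox6, an HMG-box gene that pairs with Sox5, rose from 105.1 ± 3.68 to 132.7 ± 7.95 CPM. Taf7l over Taf7 was 1.52 ± 0.102 in wild type against 1.47 ± 0.0864 in knockout (exact permutation p = 0.429), and the autosomal Taf7 also fell, by 0.37 on the log2 scale (adjusted p = 0.00355 in edgeR). Brwd1 over Brwd3 was 4.11 ± 0.355 in wild type against 4.27 ± 0.219 in knockout (exact permutation p = 0.486). Brwd3, a bromodomain gene of the X, had a log2 fold change of -0.18 that did not pass (adjusted p = 0.0989 in edgeR). For these 3 ratios a difference was not shown, which does not show that they are equal.

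**Figure D3:**
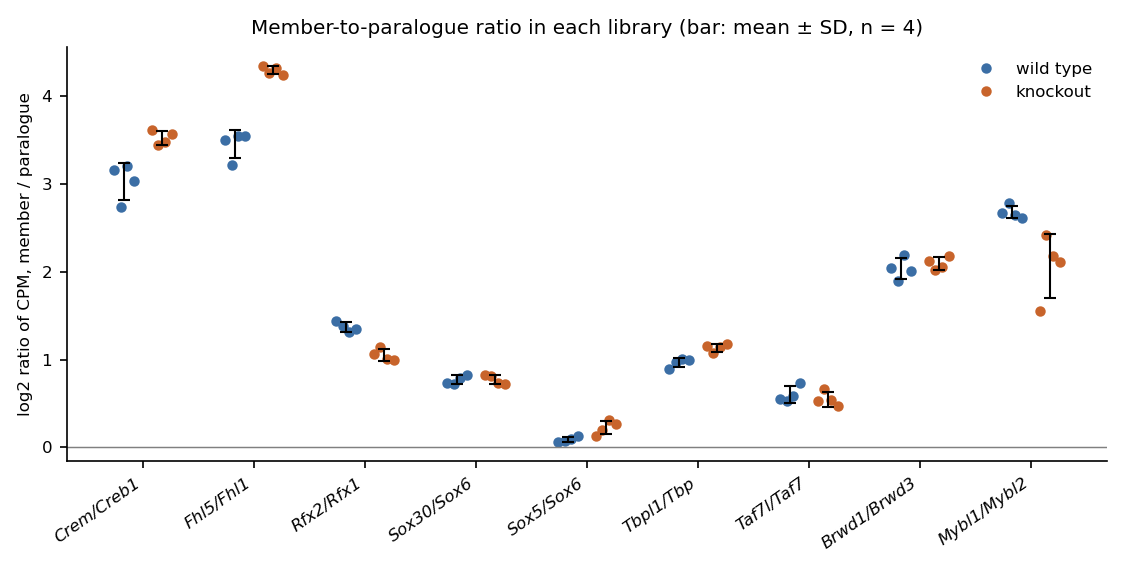
Log2 ratio of each regulator to its paralogue in each library (vertical axis; blue wild type, orange knockout; bars mean ± SD, n = 4). Crem/Creb1, Fhl5/Fhl1, Sox5/Sox6 and Tbpl1/Tbp are higher in knockout, Rfx2/Rfx1 and Mybl1/Mybl2 lower, and the other 3 overlap.

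Markers of spermatid stages were higher in the same knockout libraries and those of other cells were lower or overlapped. The summed level of 12 round spermatid markers ran from 2250 to 2547 CPM in wild type and from 3566 to 3683 CPM in knockout, and all 12 rose. The 10 elongating spermatid markers summed to between 13343 and 16548 CPM in wild type and between 20881 and 24121 CPM in knockout, and 9 rose with none lower. The 12 spermatocyte markers summed to between 1328 and 1710 CPM in wild type and to between 1179 and 1436 CPM in the knockouts (exact permutation p = 0.114), with 1 higher and 7 lower. Of the 10 spermatogonial markers 8 were lower and 1 higher, and their sum stood at 65.7% of wild type. Sums of 11 Sertoli, 8 Leydig, 6 peritubular myoid, 8 macrophage and 6 endothelial markers stood at 68.4%, 52.4%, 66.0%, 68.0% and 78.0% of wild type, with 10, 8, 5, 5 and 3 members lower and none higher. The 6 epididymis markers summed to between 6.636 and 6.998 CPM in wild type and between 4.19 and 5.11 CPM in knockout, with both tested members lower. Each of the 9 sums other than that of spermatocytes had an exact permutation p = 0.0286 (0.0317 adjusted over the 10 sums). A sum leans on its most abundant markers, as that of Sertoli cells did on Clu, with 1152 of 1641 CPM in wild type. For the counts of markers, 26.2% of all tested genes were called higher and 27.4% lower. No marker of these lists was at 0 in all libraries, but only 2 of the 6 epididymis markers had enough counts to be tested. The part of the mix of cells in the changes of the regulators was not tested.

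Set against stage markers of the same library, most regulators were higher relative to spermatocyte markers and lower relative to spermatid markers. Over the summed round spermatid markers the mean ratio was lower in knockout for all 10 regulators, with no overlap for 9. The sum itself rose by 0.55 on the log2 scale, so any gene that rose less is lower by this measure. The share of all tested genes that is lower in this way was not counted. The shift on the log2 scale was -0.96 for Taf7l, -0.67 for Brwd1, -0.67 for Mybl1 and -0.37 for Tcfl5. It was -0.30 for Fhl5, -0.29 for Crem, -0.28 for Tbpl1, -0.21 for Sox30 and -0.13 for Rfx2. Each of these 9 had an exact permutation p = 0.0286 (0.0336 adjusted over 20 ratios). Sox5, at -0.08, overlapped (p = 0.371, exact permutation test).

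Over the summed spermatocyte markers 7 regulators were higher with no overlap, by 0.65 for Sox5, 0.60 for Rfx2, 0.52 for Sox30, 0.45 for Tbpl1, 0.44 for Crem, 0.43 for Fhl5 and 0.36 for Tcfl5 on the log2 scale. Taf7l was lower by this measure too, with a difference of -0.23, while Brwd1 and Mybl1 overlapped at 0.06 each. The spermatocyte sum itself shifted by -0.18, so a gene with an unchanged level is higher on average by this measure. The share of all tested genes that is higher in this way was not counted. Ratios to the same marker list share their denominator, so they are not independent of each other. With the median of the markers in place of their sum, the spermatid shifts of Rfx2 and Tbpl1 were -0.05 and -0.20 and no longer passed (adjusted exact permutation p = 0.602 and 0.101), and that of Sox5 was 0.0029. Leaving out 1 library ended 14 of these calls in all, each time with the direction kept and an adjusted exact permutation p = 0.0672. The kept direction was fixed in advance, since groups that are apart stay apart when a library is left out. With 3 against 4 libraries the exact permutation p moves in coarse steps from 0.0286, so a lost call does not show a weaker difference. The spermatid shift of Rfx2 and its spermatocyte shift no longer passed when any 1 of the 4 knockout libraries was left out. That of Tbpl1 over spermatid markers ended without knockout replicate 3. Over spermatocyte markers, Sox30 no longer passed without knockout replicate 1 or 3, Tcfl5 without knockout replicate 1, and Fhl5 without knockout replicate 1 or wild-type replicate 2.

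**Figure D4:**
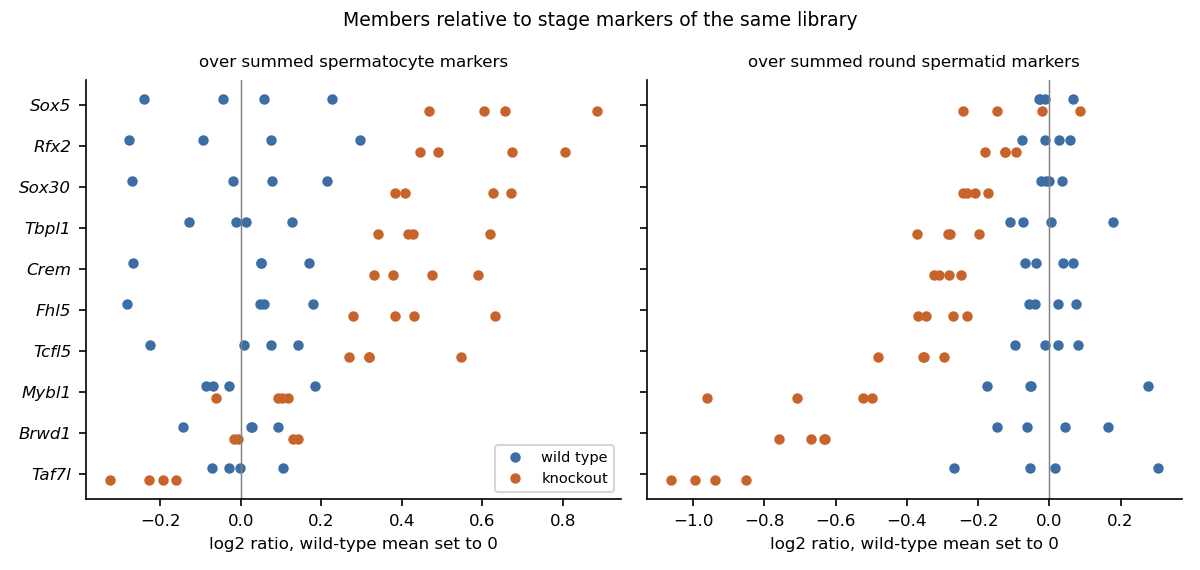
Log2 ratio of each regulator to the summed spermatocyte markers (left) and round spermatid markers (right) of the same library, with the wild-type mean of each gene set to 0 (blue wild type, orange knockout, 4 libraries each). On the left 7 genes are shifted to the right, and on the right all but Sox5 are separated to the left, Taf7l farthest at -0.96.

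Haploid genes known to need CREM, SOX30, TBPL1 or BRWD1 all rose. Of the 12 listed, 12 were tested and 12 rose, where 26.2% of all tested genes were called higher. Their median log2 fold change was 0.55, and the highest value among the 10 regulators was 0.48 for Sox5. A part of the regulators in these rises was not tested. Akap4, an X-linked gene that encodes an anchoring protein of the sperm tail, rose from 1603 ± 74.2 to 2596 ± 113 CPM. The log2 fold change was 0.58 for Pgk2 and 0.49 for Gapdhs, whose enzymes serve glycolysis in sperm, and 0.56 for Smcp, of the mitochondrial capsule. With library totals 11 of the 12 were called higher. Of these genes 7 are also among the 10 elongating spermatid markers, so the lists are not separate results. The 5 others (Camk4, Ace, Pgk2, Gapdhs and Fabp9) all rose, with a median log2 fold change of 0.37. RefSeq held 12 promoters for 9 of the haploid genes. The exact cAMP response element word TGACGTCA was in 0 of the 12 and its half-site TGACG or CGTCA in 0, against 1.55% and 17.8% of all promoters. Forms that differ from these words were not searched, so this does not show that the promoters lack such an element. The SOX word ACAAT or ATTGT was in 6 of the 12, against 27.7% of all promoters.

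Genes known as targets of RFX factors are mostly of cilium and flagellum. Of 13 tested, 9 rose, none fell and 4 did not pass (H1f6, Dync2li1, Ift88 and Bbs4), with a median log2 fold change of 0.27. The shares over all tested genes were 26.2% higher and 27.4% lower. Dync2li1, a dynein subunit gene of transport in cilia, had the lowest value, -0.08. Tekt4, a tektin gene of the flagellum, rose from 268.3 ± 15.2 to 355.6 ± 12.8 CPM and Spag6, of the central apparatus and with a close copy in Spag6l, from 105.7 ± 7.56 to 148.7 ± 11.9 CPM. Dnali1, a dynein light intermediate chain gene, rose by 0.42 on the log2 scale. Gtf2a1l, the germ-cell paralogue of a subunit gene of the general factor TFIIA, rose from 263.7 ± 9.26 to 331.8 ± 10.7 CPM.

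Partners and paralogues of the regulators went both ways. Of 27 listed, 25 were tested, 9 rose, 11 fell and 5 did not pass, with a median log2 fold change of -0.18. Over all tested genes 26.2% were called higher and 27.4% lower. Kif17, the kinesin gene whose testis product moves FHL5 out of the nucleus, rose from 339.0 ± 26.8 to 492.9 ± 23.6 CPM. Rfx3, an RFX gene of ciliated cells, rose from 39.3 ± 1.80 to 59.6 ± 4.54 CPM. The X-linked Taf1, the gene of the largest TFIID subunit, fell from 24.9 ± 2.06 to 15.2 ± 1.32 CPM (log2 fold change -0.71, adjusted p = 7.18e-06 in edgeR), as Taf7 and Taf7l also did. Creb1 fell by 0.24 on the log2 scale (adjusted p = 0.0272 in edgeR).

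Among 23 other transcription regulators of meiosis and spermiogenesis, 12 rose, 3 fell and 8 did not pass, with a median log2 fold change of 0.19. Beside this, 26.2% of all tested genes were called higher and 27.4% lower. Spz1, a leucine zipper gene of the testis, rose from 886.2 ± 39.3 to 1288 ± 34.3 CPM. Foxj1, the forkhead gene of motile cilia, rose from 63.2 ± 4.98 to 92.8 ± 8.36 CPM. Nr6a1, the gene of germ cell nuclear factor, rose by 0.37 and Zmynd15, a repressor gene of haploid cells, by 0.42 on the log2 scale. Those that fell were Foxj3, a forkhead gene of germ cells, by 0.50 on the log2 scale, and the genes of meiotic entry Stra8 and Meiosin, which fell by 0.72 and 0.42. With library totals 7 of the 23 were called higher.

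**Figure D5:**
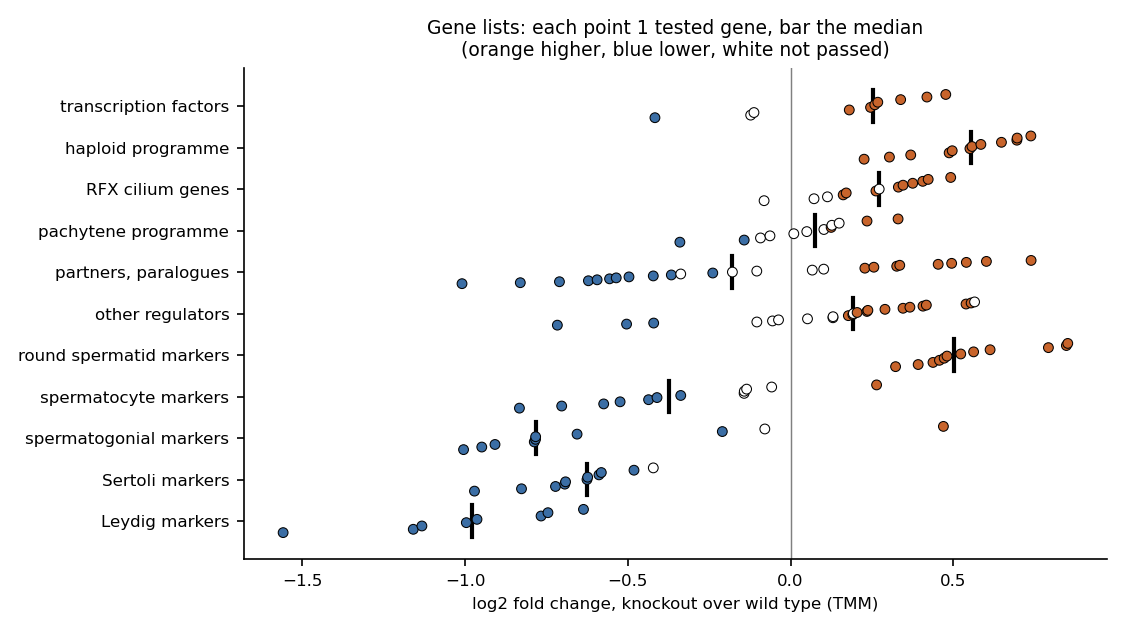
Log2 fold change of every tested gene of each list (horizontal axis, TMM scaling; orange higher, blue lower, white not passed; black bar the median). The 10 regulators have a median of 0.25, between the haploid genes at 0.55 and the pachytene genes at 0.08.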

How the data were processed

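Bulk RNA was sequenced from adult testis of Ssty2-/- mice (4 libraries) and wild-type mice (4 libraries). TRIzol extraction, DNase treatment and a TruSeq kit are named, per the labels' protocols. The authors deposited raw read counts per Ensembl gene. The tools listed are STAR, featureCounts, Trimmomatic, FastQC and DESeq2, with build mm39, per the submitters' processing notes. Their versions and settings, the annotation, the strandedness and the treatment of multi-mapping reads were not given in the sources used here.

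Symbols for 52073 of 56748 genes, exon lengths, chromosomes, overlaps and shared 31-base words were taken from GENCODE M21 (GRCm38), and promoters from RefSeq (GRCm38.p6). Counts were tested with edgeR 4.0.16 (R 4.3.3; filterByExpr with minimum count 10 and total 15, TMM, genotype as the only term). The procedure was also tested on simulated data. Log2 ratios within libraries were compared by two-sided exact permutation tests. Alternatives were other scalings and filters, DESeq2 1.42.0, limma 3.58.1 (voom), leaving out each library, the replicate number as a block, and the median in place of the sum of the markers. Within groups no pair of libraries agreed within sampling noise (chi-square per degree of freedom from 4.52 to 9.40), so all were kept.

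The regulators and lists were chosen with earlier results of these data known. Genes named are the 10 regulators, their paralogues and genes whose exons overlap those of a regulator or of Tbp. From each non-marker list the 4 genes with the smallest p are named, and those of a direction taken by 5 or fewer. Other genes were chosen after their values were seen. They are Piwil1, Fhl4, Rfx4, Clu, the pachytene genes named for the E-box, and the RFX and haploid genes listed by name.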

Additional observations from a re-analysis of the deposited data

Results flagged for a closer look

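The 10 regulators were checked in both groups for a library far from the other 3, which chance gives in about 1 in 20 groups, and 2 of 20 groups showed one. Sox30 in wild-type replicate 2 was at 167.7 CPM, below the 3 others of its group, and without that library Sox30 was still called higher. Brwd1 in knockout replicate 1 was at 70.1 CPM, below the 3 others of its group.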

How the results depend on the processing

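The directions of all 10 regulators held under the 16 alternatives, and the calls of Rfx2, Sox30, Sox5, Tbpl1 and Taf7l passed in each of them. Library totals gave 4 regulators higher and 3 lower, with log2 fold changes of 0.12 for Crem, 0.10 for Fhl5 and 0.038 for Tcfl5, which no longer passed, and of -0.26 for Brwd1 and -0.26 for Mybl1, which then did. With library totals 1 RFX target was lower in place of none, 1 pachytene gene was higher and 4 lower, and 7 other regulators were higher. Upper-quartile factors gave 6 pachytene genes higher and 1 lower, and with no filter on low counts 1 was lower. Leaving out each library in turn, between 1 and 2 regulators and between 1 and 2 pachytene genes were lower, and the log2 fold change of Brwd1 ran from -0.16 to -0.089, passing without wild-type replicate 1. Leaving out a library gave between 0 and 6 paralogue ratios past the threshold. It was 0 without wild-type replicate 1, 2, 3 or 4, and 6 without any 1 knockout library. The 6 kept their directions and their lack of overlap each time, which was fixed in advance for groups that are apart with all libraries. Of 17 stage ratios past the threshold, between 12 and 17 passed when a library was left out, with 12 without knockout replicate 1. The groups of those that no longer passed had to stay apart, and the smallest exact permutation p with 3 against 4 libraries is 0.0286. Libraries with the same replicate number shared little, with correlations of their deviations of 0.140, 0.0567, 0.0859 and 0.0165, and 3 of 4 knockout libraries matched their own number best. With the replicate number as a block, edgeR called 5915 genes higher and 6203 lower, against 5744 and 6008, and the calls of the 10 regulators did not change. The replicate block left 0 paralogue ratios, 0 stage ratios and 0 marker sums past the threshold, where 4 pairs cannot give a p below 0.125. Depth limits none of the 10 regulators, since each had at least 640 counts in every library.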
